A study of Homo sapiens with 15 samples.

Results

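RUVBL2-only regions are defined here as stretches of the genome of MDA-MB-231 cells where the oxidised histone H3K4ox was found in both libraries, the ATPase RUVBL2 was found as well, and the histone variant H2A.Z was not. MDA-MB-231 cells are a long-established human line from a triple-negative breast tumour. They were grown in culture, and the labels state no treatment or knockdown for the libraries used here. Peaks of the H3K4ox libraries were merged where they overlapped by at least 1 bp, and merged regions with peaks of both were kept as H3K4ox shared regions. The RUVBL2-only regions were then chosen by the RUVBL2 and H2A.Z peak calls. Of 162645 shared regions, 52441 overlapped a RUVBL2 peak and no H2A.Z peak (32.2%, 95% Wilson interval 32.0 to 32.5), and together they covered 100.0 Mb. The other shared regions were 10100 with RUVBL2 and H2A.Z, 6693 with H2A.Z and no RUVBL2, and 93411 with neither. RUVBL2 was called in 38.5% of all shared regions and H2A.Z in 10.3%.

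Chromatin immunoprecipitation with sequencing (ChIP-seq) was the assay, with 1 library for RUVBL2, 1 for H2A.Z and 2 for H3K4ox, the last made with a home-made antibody. The title of the series names LOXL2 and chromatin compaction in triple-negative breast cancer. Of its 15 samples, 4 had a peak list. The other 11 were not analysed here, namely 8 RNA-seq, 2 ATAC-seq and 1 input sample, so the knockdowns of LOXL2 and RUVBL2 do not enter the comparisons.

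LOXL2 is a lysyl oxidase that, besides its work on extracellular collagen, can oxidise lysine 4 of histone H3 in the nucleus. The product, H3K4ox, has lost the amino group that other enzymes methylate and has been linked to compact chromatin. RUVBL2 (reptin) is an AAA+ ATPase that forms rings with its partner RUVBL1 (pontin). The rings are part of the INO80, SRCAP and TIP60 remodelling complexes, of which SRCAP and TIP60 place H2A.Z in nucleosomes. H2A.Z is a variant of histone H2A known from nucleosomes at gene starts and enhancers. In RUVBL2-only regions a subunit of the exchange complexes was called and the variant that they place was not.

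The peak lists held 109607 peaks for RUVBL2, 38584 for H2A.Z, and 252459 and 246967 for H3K4ox replicates 1 and 2. They give no reads, so depth is unknown, and a missing H2A.Z peak may mean absence or a signal under the threshold of the caller. RUVBL2 and H2A.Z had no replicate, and nothing states that the H3K4ox libraries came from separate cultures. Every peak has a score written by the authors' peak caller, with a minimum of 50 and no unit stated in the headers. The calls themselves chose the regions, so all comparisons below are descriptions with no test. Wilson intervals cover counting error only and treat regions as independent. Positions are in hg19, and no genes are named because no annotation of that build was used here.

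Few regions lay within 10 bp of the limits of the rule. RUVBL2 overlap was 10 bp or less in 69 RUVBL2-only regions, and 82 regions with neither antibody had a RUVBL2 peak within 10 bp of their edge. H2A.Z lay within 10 bp of the edge of 11 RUVBL2-only regions, and 25 regions with RUVBL2 and H2A.Z overlapped H2A.Z by 10 bp or less. By score, more RUVBL2 calls were near the limit: the lower quartile of RUVBL2 scores in RUVBL2-only regions was 64.7, against a minimum of 50. The smallest overlap was 1 bp, as on chromosome 2 at 186452979 to 186454559. The smallest distance to H2A.Z was that of adjoining bases, as on chromosome 14 at 87057523 to 87062246. RUVBL2 peaks in these regions numbered 58544, or 53.4% of the list, and 457 of them reached an H2A.Z peak beyond the region's edge.

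RUVBL2-only regions were wide and high-scoring among H3K4ox shared regions. Their median width was 1551 bp (quartiles 1081 and 2278), against 1996 bp with RUVBL2 and H2A.Z, 1031 bp with H2A.Z alone and 925 bp with neither. In replicate 1 their H3K4ox scores had a median of 156.1, with a lowest value of 50 and a highest of 3100. In replicate 2 the median was 148.9, with the same extremes. The mean of these medians was 152.5 ± 5.1 (SD, n = 2), against 219.8 ± 9.3 with RUVBL2 and H2A.Z, 93.6 ± 2.7 with H2A.Z alone and 85.0 ± 1.7 with neither. The differences between kinds of region exceeded the spread between replicates, and RUVBL2-only regions stood between those with RUVBL2 and H2A.Z and those without RUVBL2. At like width the difference from regions with neither was smaller. Among regions of 800 to under 1200 bp the median scores in replicates 1 and 2 were 93.6 and 91.1 in RUVBL2-only regions, against 86.5 and 85.0 with neither. Among those of 1500 to under 2000 bp they were 184.1 and 176.5 in RUVBL2-only regions, against 153.2 and 143.1 with neither. Ranked among all shared regions, their median score lay at percentile 70.0 in each replicate. The Spearman correlation between replicates was 0.79 across the 52441 RUVBL2-only regions, against 0.83 in regions with RUVBL2 and H2A.Z and 0.54 in regions with neither. This correlation is across regions, which are not independent replicates.

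RUVBL2 scores in RUVBL2-only regions ran from 50 to 2192, with a median of 93.2 (quartiles 64.7 and 158.9). In regions with RUVBL2 and H2A.Z the median was 120.8 (quartiles 75.5 and 221.0), so the distributions overlapped widely. With the upper 50% of each list by score alone, the median of RUVBL2-only regions was 149.1, higher by construction because low-scoring RUVBL2 peaks were left out. Across RUVBL2-only regions the RUVBL2 score followed the H3K4ox score with a Spearman correlation of 0.58 in replicate 1 and 0.57 in replicate 2. Width followed H3K4ox score more closely, at 0.81 and 0.78, and followed RUVBL2 score at 0.59. Within a width range the correlation between the scores was lower. Among RUVBL2-only regions of 800 to under 1000 bp it was 0.08 in each replicate. It was 0.33 and 0.32 at 1500 to under 2000 bp, and 0.34 and 0.35 at 2000 to under 3000 bp. A width range also narrows the range of H3K4ox scores, which can lower a correlation by itself. How much it did so was not tested. All these values describe regions of the same libraries.

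The share of shared regions that were RUVBL2-only differed severalfold with width. It was 11.4% below 800 bp, 17.4% at 800 to under 1000 bp, 37.0% at 1200 to under 1500 bp and 62.5% at 2000 to under 3000 bp. At 4000 to under 6000 bp it reached 71.2% (70.0 to 72.3), beside 27.3% with RUVBL2 and H2A.Z. Regions with neither made up 83.2% of shared regions below 800 bp and 1.21% at 4000 to under 6000 bp, where 78 of 6423 had neither. A wide region has more room to meet any peak, and the part of size in these shares was not tested. With only regions of 800 to 1200 bp counted, the RUVBL2-only share was 21.2%. H2A.Z followed width too: of the shared regions with RUVBL2, 91.0% below 800 bp lacked H2A.Z, 85.1% at 1500 to under 2000 bp and 72.3% at 4000 to under 6000 bp. In the 298 shared regions of 6000 bp or more, RUVBL2-only regions were a minority of 39.9%, and 53.0% held RUVBL2 and H2A.Z.

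**Figure D1:**
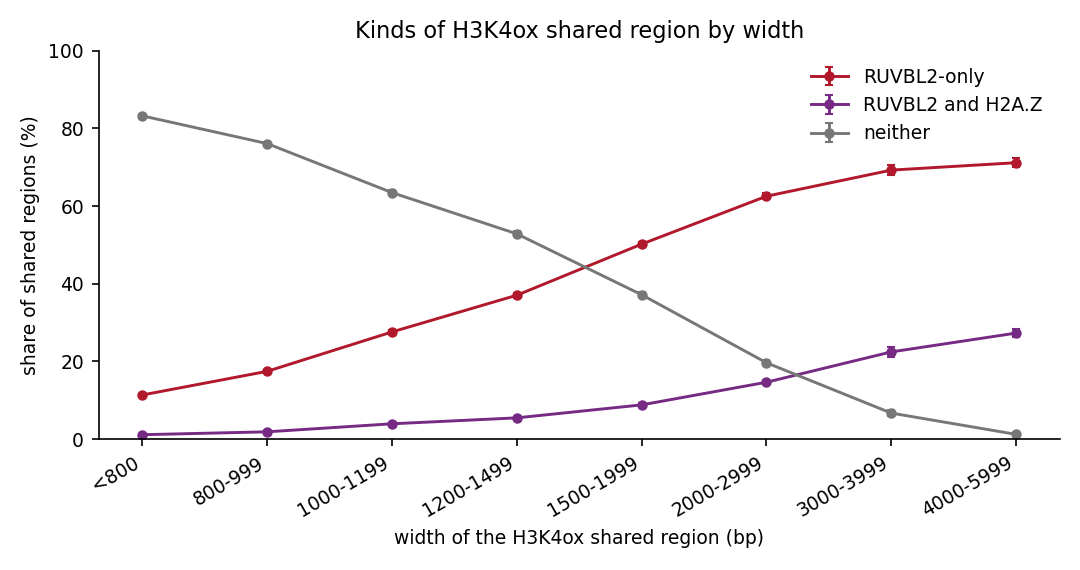
Share of H3K4ox shared regions that were RUVBL2-only (red), held RUVBL2 and H2A.Z (purple) or neither (grey), by width in bp; bars are 95% Wilson intervals. The RUVBL2-only share is 11.4% in the narrowest bin and 71.2% at 4000 to under 6000 bp, and regions with neither almost vanish there.

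Within a width range the H3K4ox score made a smaller difference, and the order was not steady. Shared regions of each width range were divided into 4 groups of like size by the mean percentile of both replicates. At 1500 to under 2000 bp the RUVBL2-only share was 37.9% in the lowest-scoring group, 47.4% and 58.0% in the next ones and 57.5% in the highest. At 800 to under 1000 bp it stayed between 14.8% and 19.4%. At 4000 to under 6000 bp the order was opposite, with 76.2% in the lowest group and 64.0% in the highest, while regions with RUVBL2 and H2A.Z went the other way, with 21.0% in the lowest group and 33.9% in the highest. Nearly all regions of this width held RUVBL2, and 1.21% had neither antibody, so these 2 shares mirror each other there. A rise of the share with RUVBL2 and H2A.Z was not particular to wide regions. From the lowest to the highest group it went from 5.96% to 12.2% at 1500 to under 2000 bp. At 800 to under 1000 bp it went from 1.45% to 2.55%.

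The widths of RUVBL2-only regions had 2 modes. In bins of 250 bp the counts were highest at 750 to under 1000 bp, with 8106 regions, and lowest between the modes at 3500 to under 3750 bp, with 701. They were higher again at 4500 to under 4750 bp, with 981, before they dropped to 108 at 5500 to under 5750 bp. Regions with RUVBL2 and H2A.Z had the same shape, with 233 at 3500 to under 3750 bp and 374 at 4500 to under 4750 bp. Regions with neither had no such second mode, with 45 at 3500 to under 3750 bp and 16 at 4500 to under 4750 bp. Single peaks of the H3K4ox lists showed a weaker one: replicate 1 had 749 peaks of 3250 to under 3500 bp and 941 of 3750 to under 4000 bp, and replicate 2 had 677 and 821. RUVBL2 peaks had none, with 548 and 479 in those bins.

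**Figure D2:**
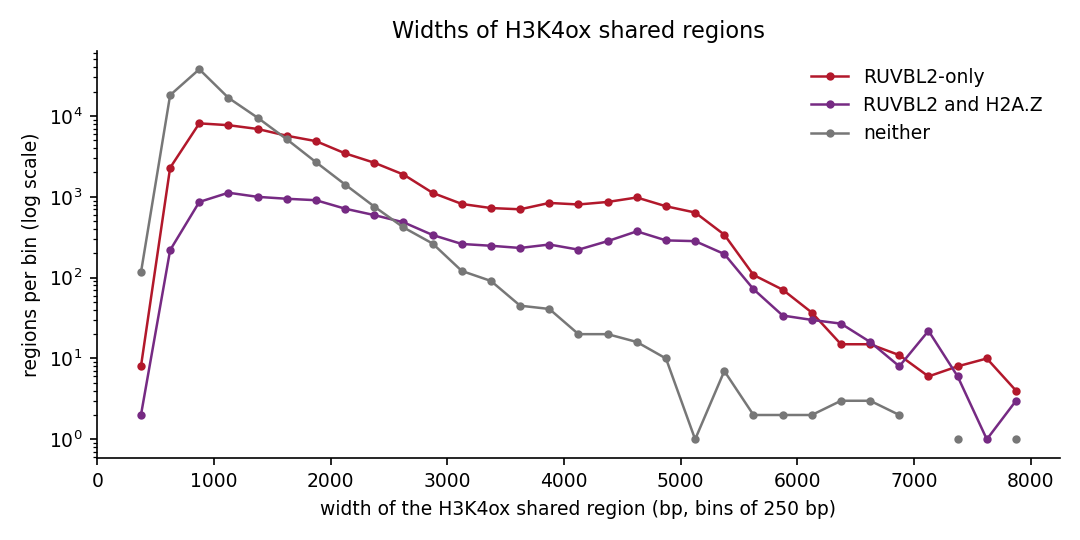
Number of H3K4ox shared regions per 250 bp of width, on a log scale, for RUVBL2-only regions (red), regions with RUVBL2 and H2A.Z (purple) and regions with neither (grey). Both kinds with RUVBL2 have a second mode at 4500 to under 4750 bp, where RUVBL2-only regions number 981 per bin and regions with neither 16.

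Wide RUVBL2-only regions, taken as 4000 to under 6000 bp after the widths had been seen, numbered 4571. They were 8.72% of RUVBL2-only regions, while 3.95% of all shared regions had this width. Of regions with RUVBL2 and H2A.Z a larger part had it, 1753 of 10100. The wide RUVBL2-only regions had a median width of 4644 bp (quartiles 4353 and 5004). In replicate 1 their H3K4ox scores ran from 99.4 to 3100 with a median of 567.2, and in replicate 2 from 77.4 to 3100 with a median of 482.7. The mean of the medians was 524.9 ± 59.8 (SD, n = 2), against 139.9 ± 4.4 in the other RUVBL2-only regions. Their median RUVBL2 score was 265.7, against 87.4 in the others. These high scores were not particular to RUVBL2-only regions. Regions of the same width with RUVBL2 and H2A.Z had 580.0 ± 71.3 for H3K4ox and 275.4 for RUVBL2. RUVBL2 covered a median of 70.8% of the length of wide RUVBL2-only regions, or 3327 bp. This was close to the 72.2% in the other RUVBL2-only regions and above the 63.6% in those of 2000 to under 3500 bp. In regions of the same width with RUVBL2 and H2A.Z it was 73.1%. The share of RUVBL2-only regions with this width depended on how regions were built: it was 2.67% with H3K4ox replicate 2 alone, 3.56% with replicate 1 alone, and 16.7% with the upper 50% of each list by score.

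Several peaks often made up one wide RUVBL2-only region. H3K4ox was called as 2 or more peaks in 38.7% of them in replicate 1 and in 50.2% in replicate 2, and RUVBL2 in 58.2%. Regions of the same width with RUVBL2 and H2A.Z were split about as often, at 38.6%, 49.9% and 60.1%. In wide RUVBL2-only regions the breaks between H3K4ox peaks lay near the middle. They were at a median of 1921 bp from the nearer end in replicate 1 and 1922 bp in replicate 2. The breaks were short, with medians of 135 and 159 bp. Those of RUVBL2 were longer (median 255 bp) and lay at a median of 1704 bp from the nearer end. H3K4ox coverage accordingly had a shallow dip at the centre, with 93.9% and 90.1% of centres covered in replicates 1 and 2 and 99.0% and 98.5% of positions 1000 bp away.

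Well beyond their edges, wide RUVBL2-only regions had fewer peaks around them than narrower ones. At 20000 bp from their centre, H3K4ox peaks covered 11.5% of positions in replicate 1 and 10.9% in replicate 2, and RUVBL2 6.63%. Around RUVBL2-only regions under 3500 bp the coverage there was 18.6% and 17.6% for H3K4ox and 8.39% for RUVBL2. Just past the edge coverage is low by construction, since any overlapping H3K4ox peak was merged into the region. The nearest other shared region lay at a median of 7839 bp from wide RUVBL2-only regions, against 2167 bp over all RUVBL2-only regions. H2A.Z was farther as well, at a median of 36813 bp, against 22399 bp for the other RUVBL2-only regions. Wide regions were 13.2% of the RUVBL2-only regions of chromosome 4 and 12.8% of those of chromosome 5, but 2.47% on chromosome 17 and 4.62% on chromosome 22. Only 15 wide RUVBL2-only regions lay on chromosome 22. Chromosome 19 had 154 (4.95% of its RUVBL2-only regions), at 2.61 per Mb the highest density among the 24 chromosomes.

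RUVBL2 peaks filled much of the RUVBL2-only regions. The best-scoring RUVBL2 peak of a region had a median width of 1033 bp, against 1551 bp for the regions. These sizes alone leave little room between their centres, and whether RUVBL2 prefers the centre was not tested. Taking the best-scoring RUVBL2 peak of each RUVBL2-only region, its centre was a median of 203 bp from the centre of the region (quartiles 81 and 488), or 13.2% of the region's width. The centre lay inside the region in 93.2% of cases. The median offset was 81 bp in regions under 1000 bp, 183 bp at 1000 to under 2000 bp, 410 bp at 2000 to under 3500 bp and 739 bp at 4000 to under 6000 bp. RUVBL2 peaks covered a median of 72.0% of the region's length, with 82.8% in regions under 1000 bp and 63.6% at 2000 to under 3500 bp. Of the RUVBL2 peaks in RUVBL2-only regions, 52.2% lay wholly inside. A single RUVBL2 peak was present in 45136 regions (86.1%), 2 in 6466 and 3 or more in 839.

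**Figure D3:**
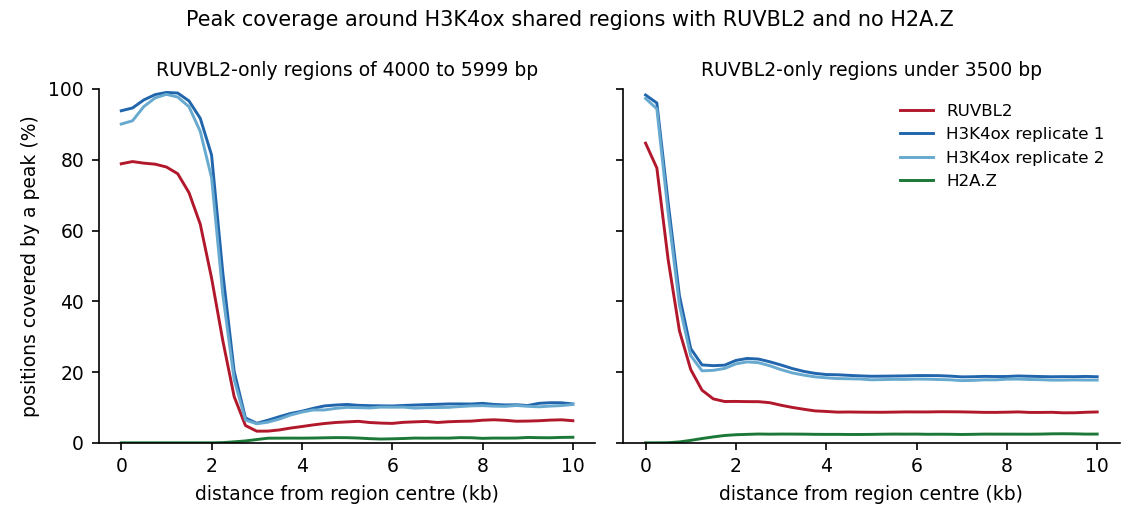
Share of positions covered by a peak of each list, by distance in kb from the centre of RUVBL2-only regions of 4000 to under 6000 bp (left) and under 3500 bp (right), averaged over both sides. RUVBL2 (red) covers 78.9% of wide and 84.7% of narrower centres, H3K4ox (blues) is low just past the edges, where merging leaves no overlapping peak, and H2A.Z (green) is 0 at the centre by definition.

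H2A.Z was absent from RUVBL2-only regions by definition, and the distance to its nearest peak was not fixed by it. The median distance from the edge was 23461 bp (quartiles 7412 and 61913), against 27174 bp (9092 and 70298) for regions with neither. At like width the order turned: it was 21208 bp for RUVBL2-only regions and 27483 bp for regions with neither at 800 to under 1200 bp, but 23339 bp and 20276 bp at 1500 to under 2000 bp, and 22662 bp and 16768 bp at 2000 to under 3000 bp. With the upper 50% of each list by score alone it was 54441 bp for RUVBL2-only regions. That setting also cuts the H2A.Z list, which lengthens distances by construction. An H2A.Z peak lay within 1000 bp of 2638 RUVBL2-only regions (5.03%, Wilson interval 4.85 to 5.22) and of 3.66% of regions with neither. It was more than 100000 bp away from 14.8% of RUVBL2-only regions and 17.0% of regions with neither. At 10000 bp beyond the edge, H2A.Z covered 2.33% of positions around RUVBL2-only regions and 1.85% around regions with neither. That order depended on width and on the distance at which it was read. Among regions of 800 to under 1200 bp the coverage at 10000 bp was 2.37% for RUVBL2-only and 1.81% for neither, among those of 1500 to under 2000 bp it was 2.34% and 2.38%, and among those of 2000 to under 3000 bp 2.44% and 2.98%. At 1000 bp beyond the edge it was higher for RUVBL2-only regions in all 3 of these width ranges, at 2.28% against 1.51% for neither, 2.41% against 1.97%, and 2.73% against 2.56%. At 20000 bp it was 2.61% for RUVBL2-only regions of 1500 to under 2000 bp and 2.17% for neither, the opposite of the order at 10000 bp.

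RUVBL2-only regions were often neighbours. For 42.9% of RUVBL2-only regions the nearest shared region was RUVBL2-only as well (Wilson interval 42.5 to 43.3), against 36.3% of regions with RUVBL2 and H2A.Z, 27.9% of those with H2A.Z alone and 27.3% of those with neither. Over all shared regions the value was 32.9%. A single RUVBL2 peak can join neighbours, and 2089 RUVBL2 peaks touched 2 or more RUVBL2-only regions. Wider regions were also more often RUVBL2-only, and width was not held fixed in this count. With at most 10 kb between neighbours, the RUVBL2-only regions formed 34247 groups, of which 24540 were single regions. Groups of 5 or more numbered 946 and held 13.5% of the regions. Of 19 groups with 20 or more, 6 lay on chromosome 19. A fixed gap joins more regions where they lie densely. Chromosome 19 had the most shared regions per Mb, 168.4 against 58.5 on chromosome 1, and an ordinary RUVBL2-only share of 31.3%. Groups of the other kinds of region are not given here, so these counts do not show clustering beyond density.

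The group with the most RUVBL2-only regions lay on chromosome 3 at 48766938 to 48934659. In 167.7 kb it held 46 shared regions, of which 31 were RUVBL2-only, with 45 RUVBL2 peaks and 3 H2A.Z peaks. The median H3K4ox scores of the 31 were 229.0 and 218.4 in replicates 1 and 2, above those of all RUVBL2-only regions, and their median RUVBL2 score was 76.1, below that of all. On chromosome 20, 42180478 to 42323172, 30 of 46 shared regions were RUVBL2-only, with a median RUVBL2 score of 77.5. A second group on chromosome 20, at 35600214 to 35720246, had 24 of 30 and no H2A.Z peak at all. On chromosome 19, 12531446 to 12659627, 27 of 34 shared regions were RUVBL2-only, with a median RUVBL2 score of 131.1, and 11287435 to 11422504 held 25 of 50, beside 9 H2A.Z peaks. These 5 groups thus ranged from regions without H2A.Z to regions where H2A.Z peaks lay between the RUVBL2-only regions, and RUVBL2 scores were not high in all.

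**Figure D4:**
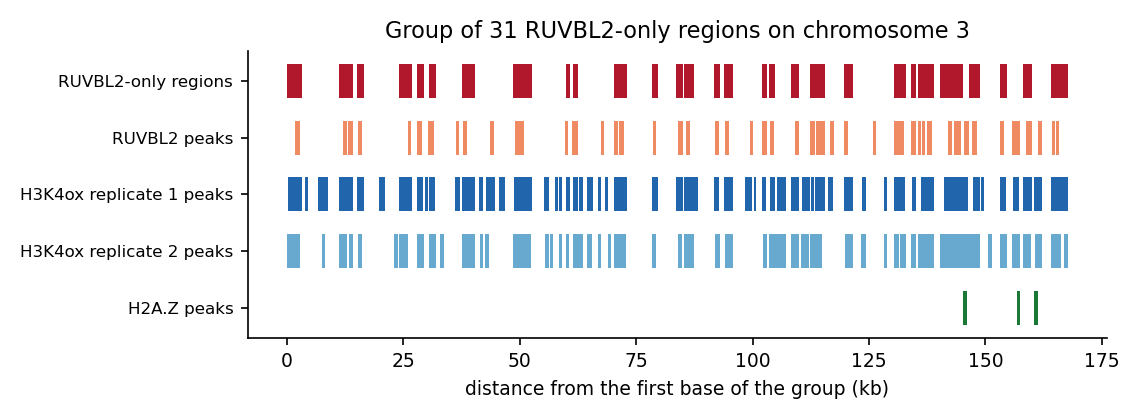
Map of the group on chromosome 3 with 31 RUVBL2-only regions, in kb from its first base; boxes are peaks of each list or RUVBL2-only regions, drawn to scale. RUVBL2 peaks lie along the whole 167.7 kb and the 3 H2A.Z peaks towards its end.

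Chromosome X had the largest RUVBL2-only share of the 24 chromosomes. Of its 2702 shared regions, 1864 were RUVBL2-only (69.0%, Wilson interval 67.2 to 70.7), 2.14 times the share over all chromosomes, and only 22.9% had neither antibody. H3K4ox shared regions were sparse on X, at 17.4 per Mb of the span between its outermost peaks, against 58.5 per Mb on chromosome 1. The median RUVBL2 score of RUVBL2-only regions on X was 147.2, the highest of the chromosomes, and H2A.Z lay at a median of 93084 bp. The share on X was also higher at like width: among regions of 1500 to under 2000 bp 81.0% of 783 on X and 48.9% on chromosomes 1 to 22 were RUVBL2-only, and among those of 800 to under 1000 bp 36.6% of 298 and 17.3%. Without regions of 4000 to under 6000 bp the share on X was 68.2%. On chromosome Y the lists gave 375 shared regions, 59.2% of them RUVBL2-only. Whether the reads behind the Y peaks were placed uniquely is unknown, since the lists hold no reads. The Y calls are therefore not evidence that the marks lie on that chromosome. They were kept in all totals, with 222 RUVBL2-only regions.

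**Figure D5:**
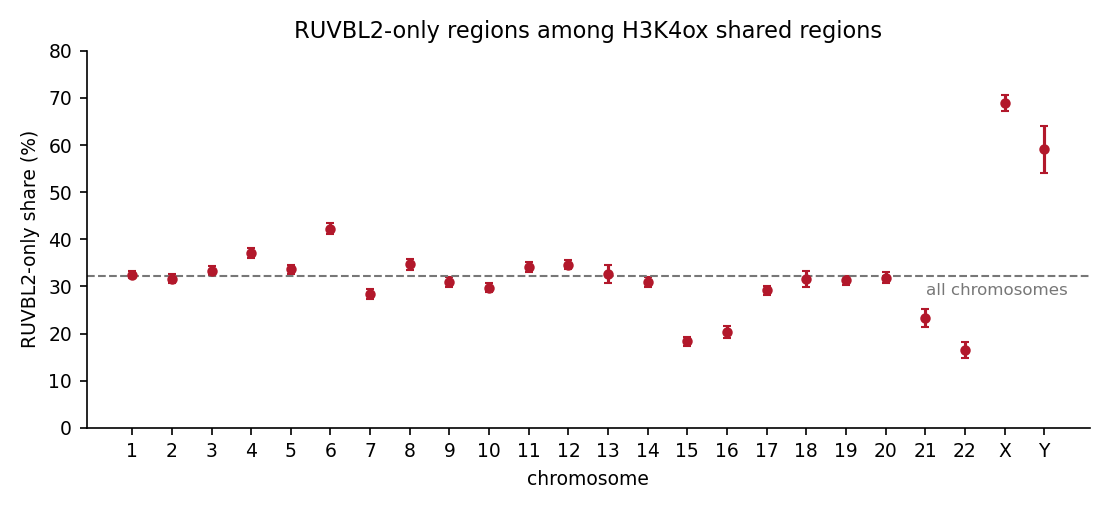
RUVBL2-only regions as a share of the H3K4ox shared regions of each chromosome, with 95% Wilson intervals; the dashed line is the share over all chromosomes, 32.2%. Chromosome X stands at 69.0%, chromosome 6 at 42.2% and chromosomes 15, 16, 21 and 22 between 16.5% and 23.3%.

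Of the numbered chromosomes, 6 had the largest share, 42.2% (41.1 to 43.4). It also had the second-lowest share without H2A.Z among its shared regions with RUVBL2, 76.7%, next to 75.2% on chromosome 19. Its longest stretch without any peak, 58780317 to 61883192, parts it: after the stretch 48.5% of 2897 shared regions were RUVBL2-only, and before it 38.0% of 4331. RUVBL2-only regions after the stretch had a median RUVBL2 score of 143.3 and those before it 94.3. Their H3K4ox medians were 170.8 and 161.0 in replicates 1 and 2 after the stretch, against 123.8 and 119.8 before it. Chromosome 4 followed with 37.2%.

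Chromosomes 22, 15, 16 and 21 had the smallest RUVBL2-only shares, 16.5%, 18.4%, 20.3% and 23.3%. Of their shared regions 79.0%, 76.6%, 74.1% and 69.0% held neither antibody, and of those with RUVBL2 92.1%, 90.9%, 88.4% and 85.8% lacked H2A.Z. RUVBL2-only regions on chromosome 22 had the lowest median RUVBL2 score (71.9) and those on chromosome 15 the next (74.4). On chromosome 15 their H3K4ox scores were not low, with medians of 158.5 and 153.8. Chromosome 19, the most gene-dense chromosome, had an ordinary share of 31.3% and the highest density, 52.7 RUVBL2-only regions per Mb, with H2A.Z at a median of 7884 bp.

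The share also varied within chromosomes. Over 513 windows of 5 Mb with at least 100 shared regions it ran from 5.64% to 82.4%, with a median of 31.9% (quartiles 26.8% and 39.6%). All 14 windows above 60% lay on chromosome X (8), chromosome 6 (4) and chromosome 14 (2). The highest was X at 60 to 65 Mb, with 108 of 131 shared regions, and every window of X that could be counted was above 65%. On chromosome 14 the high windows were 40 to 45 Mb, with 66.9%, and 25 to 30 Mb, with 63.1%, on a chromosome whose share was 30.9%. The lowest were chromosome 22 at 45 to 50 Mb, with 11 of 195, and chromosome 12 at 130 to 135 Mb, with 17 of 161. On chromosome 19 the first 5 Mb had 12.8% although H3K4ox was dense there, with 579 shared regions. Across windows the share had a Spearman correlation of -0.38 with the number of shared regions and 0.23 with the number of RUVBL2 peaks. With the number of RUVBL2 peaks per H3K4ox peak it was 0.92 in replicate 1 and 0.91 in replicate 2. The share thus closely followed the ratio of the peak counts. Part of this relation is built in, as the share counts H3K4ox regions that hold a RUVBL2 peak. These values describe windows that share libraries, and the number of shared regions is also the denominator of the share.

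The 12 best RUVBL2-only regions, by the mean of their ranks for both H3K4ox replicates and RUVBL2, were all 4353 bp or wider, 8 of them under 6000 bp. RUVBL2 peaks covered 79.3% to 100.0% of each, and H2A.Z lay 6162 to 448050 bp away. First came chromosome 1 at 142535285 to 142543804 (8520 bp), with H3K4ox scores of 3100 in both replicates and a RUVBL2 score of 1470. Next was chromosome 8 at 86749135 to 86756523, with 2189 and 2625 for H3K4ox and 2192 for RUVBL2, the highest RUVBL2 score of all RUVBL2-only regions. The list went on with chromosome 2 at 90418205 to 90423968, with 1240 and 1260 for H3K4ox and 740.9 for RUVBL2. Then came chromosome 1 at 142899027 to 142904415, chromosome 21 at 10105517 to 10111141 and chromosome 9 at 66477867 to 66483591. They were followed by chromosome 8 at 86782791 to 86787143, near the second of the list, and chromosome 9 at 68989717 to 68996033. Whether reads at these sites were placed uniquely is unknown, since the lists hold no reads. Also among the 12 were chromosome 7 at 7045240 to 7050353 (5114 bp), with 1089, 981.6 and 685.6, and chromosome 4 at 95756818 to 95762234 (5417 bp), with 1070, 938.8 and 675.2. Both were somewhat wider than the median of wide RUVBL2-only regions, 4644 bp.

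Of the 12, 3 lay within 1 Mb of a stretch of at least 1 Mb without any peak, of which there were 22. Near these stretches 1049 of 2241 shared regions were RUVBL2-only (46.8%), against 32.0% elsewhere. The surroundings of these stretches held 2.00% of RUVBL2-only regions, 3.24% of wide ones and 1.38% of all shared regions, so 3 of 12 is a larger part. Distance to such a stretch does not show how reads were placed, and that was not tested for any of the regions.

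Scores of H3K4ox and RUVBL2 parted in some RUVBL2-only regions. Most RUVBL2-only regions had H3K4ox scores at or above the median of shared regions, 69.96% in replicate 1 and 69.72% in replicate 2. The share of all shared regions below that median in both replicates was not counted. Of RUVBL2-only regions, a minority of 10467 (19.96%) were below it in both. Among these the highest RUVBL2 score was 625.8, on chromosome 10 at 75982367 to 75983038 (672 bp), with H3K4ox scores of 81.8 and 54.2 and H2A.Z 229570 bp away. Another, on chromosome 12 at 98853837 to 98855072, had a RUVBL2 score of 538.5, H3K4ox scores of 61.2 and 81.4, and H2A.Z 554 bp away. The opposite case was chromosome 10 at 134633689 to 134638992 (5304 bp), with H3K4ox scores of 3100 in both replicates and a RUVBL2 score of 52.1. RUVBL2 covered only 11.7% of that region. Chromosome 19 at 35787442 to 35790332 was similar, with 2680 and 2730 for H3K4ox and 51.5 for RUVBL2. High H3K4ox thus occurred with RUVBL2 near the threshold of the caller, and high RUVBL2 with weak H3K4ox.

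The widest RUVBL2-only regions were not the strongest in RUVBL2. The widest, on chromosome 11 at 2062740 to 2084805 (22066 bp), had H3K4ox scores of 1383 and 863.0 but a RUVBL2 score of 62.6 and RUVBL2 over 3.77% of its length. Chromosome 10 at 18841399 to 18862640 (21242 bp) was called as 1 H3K4ox peak in each replicate, with 2325 and 1241, and held 5 RUVBL2 peaks of scores up to 71.3. Replicates disagreed on chromosome 7 at 57545663 to 57557003 (11341 bp), with 143.5 in replicate 1 and 2159 in replicate 2. RUVBL2 covered 95.9% of it with a score of 107.2. Only 119 RUVBL2-only regions were 6000 bp or wider, so these sites are rare.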

How the data were processed

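MDA-MB-231 chromatin was sonicated and immunoprecipitated with antibodies to RUVBL2, H2A.Z or H3K4ox, per the labels' protocols. Peaks were called by MACS for each library apart, per the file headers and peak names. No version or setting of the caller is given in the sources used here. Only the H3K4ox headers name an input. Bowtie and TopHat are named, along with hg19, by the submitters' processing notes, without a version. Each peak's deposited score was the authors' own and was used to rank and describe peaks.

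Regions, overlaps (at least 1 bp), widths and distances were computed with pandas 2.3.3, numpy 2.4.6 and scipy 1.17.1 under Python 3.11.15, and drawn with matplotlib 3.10.9. A region's score was the highest among its peaks of that list. The interval functions were tested on simulated data. Depth is unknown, since the lists hold no reads. The regions, lists and settings were chosen with earlier results of these data known. The named sites followed a rule: the best by mean rank, the widest, the largest groups, and those whose scores part most. Part of these is given.

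Alternatives were RUVBL2 overlaps of 50% or at the peak centre, the upper 50% of each list by score, margins of 1 kb and 5 kb to H2A.Z, and each H3K4ox replicate alone. The word multilocus in all headers is not explained there. Gene starts, base composition, motifs and gene lists needed hg19 and were not used here.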

Additional observations from a re-analysis of the deposited data

How the results depend on the processing

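Of 92 values under alternative settings, over 13 quantities, 20 moved by less than the SD between the values from each H3K4ox replicate alone and 72 by more. That SD was 0.367 percentage points for the share and 2.83 bp for the distance to H2A.Z. RUVBL2-only regions numbered 52441 as reported, 42522 to 49803 with other overlaps or margins, and 66320 and 66485 with 1 H3K4ox replicate alone. They numbered 31216 of 82686 with the upper 50% of each list by score. With 50% of the RUVBL2 peak required inside the region, they were 30.5% of shared regions, at a median H3K4ox percentile of 70.5 and RUVBL2 score of 91.0. H2A.Z lay at a median of 23518 bp and covered 2.31% of positions 10 kb away, and the nearest region was RUVBL2-only for 38.0%. Relative to all shared regions, the shares were 2.02 on X, 1.30 on chromosome 6 and 0.577 on chromosome 15. With the RUVBL2 centre required inside, these values were 30.6%, 70.5, 91.1, 23530 bp, 2.31%, 38.0%, 2.03, 1.30 and 0.577. With the upper 50% of each list they were 37.8%, 69.8, 149.1, 54441 bp, 1.63%, 52.6%, 2.01, 1.34 and 0.562. The median width was then 2055 bp, 83.2% of wide shared regions were RUVBL2-only, and 16.7% of RUVBL2-only regions were wide. Without H2A.Z within 1 kb the share was 30.6%, with 69.1% of wide regions, a distance of 25781 bp, 2.12% coverage and relative shares of 2.21, 1.30 and 0.588. Without H2A.Z within 5 kb the share was 26.1%, with 63.0% of wide regions and 9.52% wide, a percentile of 70.3, a RUVBL2 score of 94.8 and a distance of 33588 bp. H2A.Z coverage was 1.63% and relative shares 2.51, 1.24 and 0.625. Requiring a margin removes regions near H2A.Z by construction. Keeping the upper 50% also cuts the RUVBL2 and H2A.Z lists, which by construction raises RUVBL2 scores and lengthens distances to H2A.Z. The cause of the other moves was not tested. With regions of 800 to 1200 bp only, the share was 21.2%.

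With 1 H3K4ox replicate alone, the values ranged over 26.3% to 26.9% for the share, 74.0 to 74.1 for the percentile, 87.7 to 89.1 for the RUVBL2 score, 23354 to 23358 bp for the distance, and 1169 to 1209 bp for the width. RUVBL2 covered 78.4% to 80.2% of a region, 68.6% to 69.1% of wide regions were RUVBL2-only, and 2.67% to 3.56% of RUVBL2-only regions were wide. Relative shares were 1.99 to 2.02 on X, 1.35 to 1.36 on chromosome 6 and 0.535 to 0.545 on chromosome 15. H2A.Z covered 2.30% to 2.32% of positions 10 kb away, and the nearest region was RUVBL2-only for 41.4% to 42.6%.

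In the 7 settings in which chromosomes were counted, which leave out the restriction to 800 to 1200 bp, the share on X was above, and that on chromosome 15 below, the share over all chromosomes. The alternatives for wide regions, RUVBL2 coverage and H2A.Z coverage were added after seeing the data. Those on gene starts and gene bodies were not run, as no hg19 annotation was used. No paired analysis was possible because the antibodies share fewer than 2 replicate numbers and the RNA-seq samples were not analysed here. RUVBL2 and H2A.Z had 1 library each, so their calls have no replicate check, and depth is unknown.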
